A study of Rattus norvegicus with 6 samples.

Results

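The semaphorin, ephrin and guidance genes were described in single-cell RNA sequencing of rat lungs 28 days after bleomycin (BLM). Every gene symbol of the count table that starts with Sema, Plxn, Epha, Ephb, Efna, Efnb, Robo, Unc5 or Ntn was taken, together with Slit1, Slit2 and Slit3, which gave 63 of the 16383 genes with values. These are 20 semaphorins, 9 plexins, 6 ephrins, 12 Eph receptors, 5 netrins, 3 Slits, 3 Robo receptors and 3 Unc5 receptors. The others are Unc50 and Unc5cl, which match the prefix but are not guidance receptors. Sprague Dawley rats of 8 to 10 weeks received BLM (5 mg/kg, 3 rats) or saline (control, 3 rats) into the trachea once, and small lung pieces were digested to single cells, whose transcripts were counted as unique molecular identifiers (UMIs). BLM is an antibiotic that breaks DNA and is widely used to produce lung fibrosis in rodents, so that each BLM lung is 1 late time point after a single injury.

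Guidance proteins were named for steering growing axons, and the same ligands and receptors direct vessels, epithelium and immune cells in the lung. Semaphorins act through plexins, with neuropilins as partners of the secreted class 3 members. Ephrins are held on the membrane and bind Eph receptor tyrosine kinases of a touching cell, with signals running both ways, and Ephrin-B2 with EphB4 is the classical pair that separates arteries from veins. Slits bind Robo receptors, and netrins bind Dcc, neogenin and Unc5 receptors.

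The 25547 cells held between 2568 and 7481 cells per rat, with 3860028 to 16598959 UMIs per rat and a median of 1066 to 1840 UMIs per cell. The members held 70301 UMIs, 0.123% of all, and each had between 16 (Unc5a) and 11541 (Sema4a) UMIs. Cells were clustered without the guidance genes and named from marker lists, and 23 classes are reported here, of which 19 had enough cells for a test between groups. Endothelial cells rose from 1.90% ± 1.26 of the cells (SD, n = 3) in control to 11.8% ± 3.63 in BLM lungs, and their larger cluster had all 13 endothelial markers above the other cells. Alveolar type 2 cells were 7.18% ± 1.09 in control and 0.752% ± 0.563 in BLM lungs, and fibroblasts were 0.435% ± 0.300 and 6.30% ± 2.79. The third BLM rat stood apart in its mesothelial share, which was 11.1% against 1.64% and 2.54% in the other BLM rats. Between rats, 315 cell barcodes were shared, and all were kept. Levels are given as CPM, the UMIs of a gene in a class of 1 rat scaled to the same total for every class and rat. A UMI stands for 1 captured molecule, so that no scaling by gene length was applied.

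Of the 63 members, 38 passed the filter on low counts in at least 1 class, and a member that passed may have done so through the group in which it was high. The other 25 were under it in every class, the most abundant of these being Sema7a with 228 UMIs. Beside Sema7a they were Efna4, Efnb3, Epha10, Epha5, Epha7, Ephb1, Ephb6, Ntn1, Ntn3, Ntn4, Ntng1, Ntng2, Plxna3, Plxna4, Plxnb1, Plxnb3, Robo1, Robo3, Sema3a, Sema5b, Sema6c, Slit1, Unc5a and Unc5cl. Robo4, the endothelial Robo receptor, was not analysed here.

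The 41 members with at least 100 UMIs were placed by the class of their highest mean level over the rats, among the tested classes reported. Endothelial cells held the highest level of 13 members, mesothelial cells and plasmacytoid dendritic cells of 6 each, and fibroblasts of 4. For 10 members the rats of the highest class did not overlap those of the next class, namely Efna1, Ephb4, Sema3g, Sema6a and Unc5b in endothelial cells, Epha2 and Ephb2 in plasmacytoid dendritic cells, Plxna2 in alveolar type 2 cells and Sema3c and Sema3d in mesothelial cells. For the other members the order of the highest and the next class was not clear of the spread between rats. Classes were made from the cells' own genes, so that these orders are descriptions without a test. How often any gene is highest in a class, or clear of the next class, was not counted. No preference of the members for a class can be read from these counts.

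**Figure D1:**
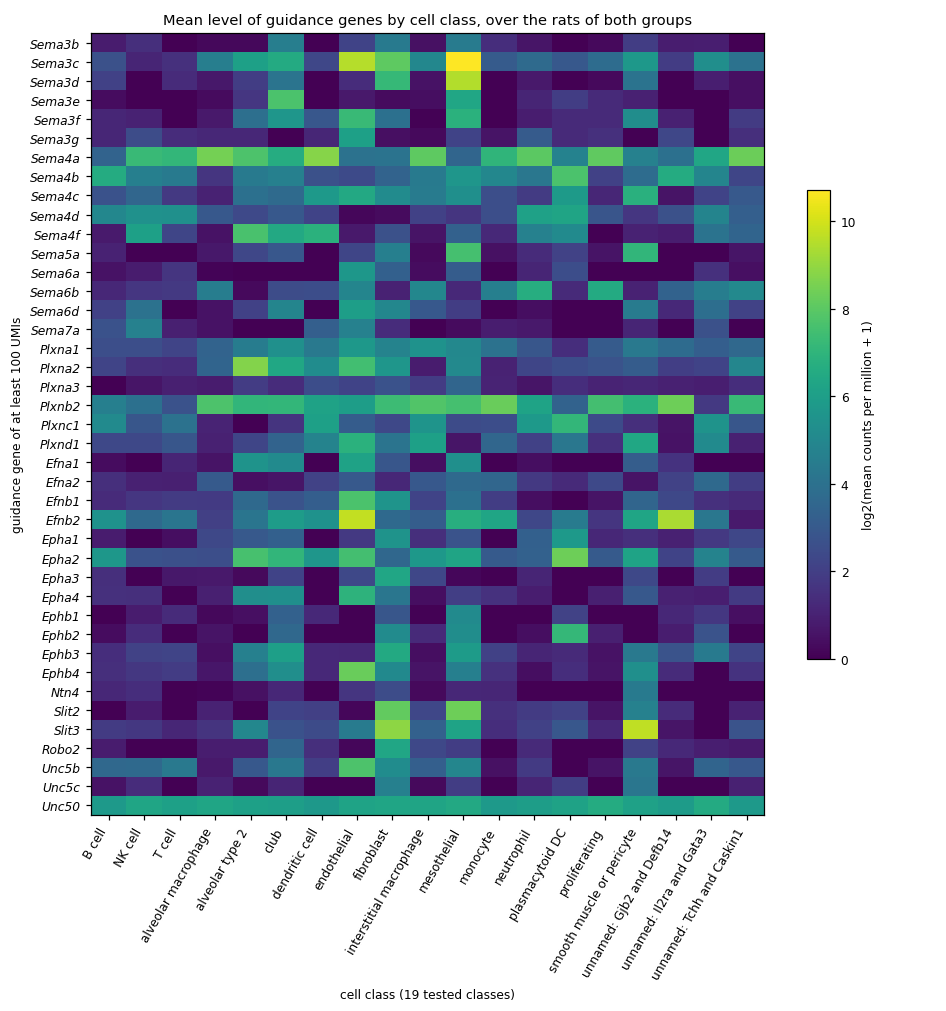
Mean level of the 41 guidance genes with at least 100 UMIs (rows, grouped by family) in the 19 tested cell classes (columns), as log2 of the mean CPM over the rats of both groups plus 1. Sema4a and Plxnb2 are bright across the myeloid classes, Sema3c is brightest in mesothelial cells, and Efnb2, Ephb4 and Unc5b stand out in endothelial cells.

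Among the ligands, the secreted semaphorins Sema3c and Sema3d were highest in mesothelial cells, and Sema3f and Sema3g in endothelial cells. Sema3c, which signals through Plxnd1 and neuropilins, was highest in mesothelial cells at 1689 CPM (1128 to 2436 over the 6 rats), followed by endothelial cells at 747 CPM (448 to 996), whose rats lay below them. Sema3d was at 722 CPM in mesothelial cells and 146 CPM in fibroblasts, and Sema3g, a vascular class 3 semaphorin, was at 67.9 CPM in endothelial cells and 7.37 CPM in neutrophils, the next class. Several membrane semaphorins were highest in immune cells. Sema4a was highest in dendritic cells at 434 CPM, with alveolar macrophages at 357 CPM, and Sema4b and Sema4d were highest in plasmacytoid dendritic cells at 206 and 75.4 CPM. Sema5a led in mesothelial cells at 190.0 CPM and Sema6b in neutrophils at 102 CPM.

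The ephrins were led by Efnb2, at 859 CPM in endothelial cells and 659 CPM in the unnamed class led by Gjb2 and Defb14, whose rats overlapped. Efnb1 was at 205 CPM and Efna1 at 71.0 CPM in endothelial cells. Of the Slits, Slit3 was at 829 CPM in smooth muscle cells or pericytes and 477 CPM in fibroblasts, and Slit2 at 329 CPM in mesothelial cells and 285 CPM in fibroblasts. The 1 netrin with at least 100 UMIs, Ntn4, was at 20.3 CPM (0 to 39.5 over the rats) in smooth muscle cells or pericytes.

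Among the receptors, Plxnb2, the plexin of several class 4 semaphorins, was read in many classes, at 326 CPM in the Gjb2 and Defb14 class and 307 CPM in monocytes, with 46.3% of its UMIs in alveolar macrophages. Plxna2 was at 423 CPM in alveolar type 2 cells, above endothelial cells at 175 CPM in every rat. Plxnd1, the endothelial plexin, was at 113 CPM in endothelial cells and overlapped smooth muscle cells or pericytes at 82.1 CPM. Ephb4 was at 304 CPM in endothelial cells against 40.0 CPM in smooth muscle cells or pericytes. Epha2 was at 330 CPM in plasmacytoid dendritic cells and 192 CPM in alveolar type 2 cells, and Ephb2 at 141 CPM in plasmacytoid dendritic cells. Robo2 was at 79.4 CPM in fibroblasts, and Unc5b at 211 CPM in endothelial cells, above fibroblasts at 35.8 CPM (0 to 59.3 over the 5 rats with enough cells).

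In the remaining tested classes the leading members were few. By mean level the leading 3 members were Sema4b, Unc50 and Epha2 in B cells, and Sema4a, Unc50 and Sema4f in NK cells. In T cells they were Sema4a, Unc50 and Sema4d, and in proliferating cells Sema4a, Plxnb2 and Unc50. The club class had Sema3e, Plxnb2 and Epha2, and monocytes Plxnb2, Sema4a and Efnb2. At a finer clustering Sema3e was at 723 CPM in pooled control cells of a cluster led by alveolar type 1 markers. It was at 37.7 CPM in the pooled control club cells that remained. The unnamed class led by Il2ra and Gata3 had Unc50, Sema4a and Plxnc1, and that led by Tchh and Caskin1 had Sema4a, Plxnb2 and Unc50.

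Promoter sequences are shown for Epha2 and Plxna2, the members that rose and fell in alveolar macrophages, and for Efnb2, the leading endothelial ephrin. Each window runs from 250 bases before to 50 bases after the gene's start in RefSeq for GRCr8, 5′ to 3′ on the gene's strand, and capitals mark any motif found. Epha2 lies at chr5:158888379-158888678, Plxna2 at chr13:108691280-108691579 and Efnb2 at chr16:87484965-87485264, all on the plus strand.
Epha2: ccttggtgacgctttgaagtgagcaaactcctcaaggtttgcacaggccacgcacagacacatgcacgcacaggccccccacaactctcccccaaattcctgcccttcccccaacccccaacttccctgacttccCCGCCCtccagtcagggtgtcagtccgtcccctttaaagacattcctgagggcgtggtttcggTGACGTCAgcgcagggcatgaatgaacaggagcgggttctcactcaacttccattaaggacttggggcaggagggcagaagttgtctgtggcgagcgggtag
Plxna2: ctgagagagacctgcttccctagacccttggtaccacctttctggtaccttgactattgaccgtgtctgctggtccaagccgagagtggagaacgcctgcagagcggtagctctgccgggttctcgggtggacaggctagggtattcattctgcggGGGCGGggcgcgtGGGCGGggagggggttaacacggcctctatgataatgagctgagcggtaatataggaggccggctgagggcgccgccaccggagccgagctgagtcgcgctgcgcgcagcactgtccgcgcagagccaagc
Efnb2: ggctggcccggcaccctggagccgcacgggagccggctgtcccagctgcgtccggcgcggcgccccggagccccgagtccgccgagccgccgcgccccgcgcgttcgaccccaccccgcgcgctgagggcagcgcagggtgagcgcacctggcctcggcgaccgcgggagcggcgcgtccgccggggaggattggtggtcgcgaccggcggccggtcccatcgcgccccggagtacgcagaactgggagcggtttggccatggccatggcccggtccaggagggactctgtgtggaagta
The windows were searched on both strands for the GC box (GGGCGG), AP-1 (TGANTCA), CRE (TGACGTCA), RBPJ (TGGGAA) and TATA box (TATAAA). The Epha2 window held 1 GC box and 1 CRE, the Plxna2 window 2 GC boxes and the Efnb2 window none of the 5 motifs, with GC contents of 58.3%, 63.3% and 77.3%. Of all 33365 promoter windows, 33.1% held a GC box, 7.34% an AP-1 motif, 1.83% a CRE, 25.7% an RBPJ motif and 14.2% a TATA box. Of the 49 members with a window, 57.1% held a GC box, 2.04% an AP-1 motif, 2.04% a CRE, 22.4% an RBPJ motif and 0 a TATA box, and their median GC content was 63.0% against 51.7% for all promoters. A match is a run of letters and not a measured binding site.

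BLM was compared with control within each class by edgeR's quasi-likelihood test on the UMIs summed per rat, with p-values adjusted by Benjamini-Hochberg over all genes tested in that class and a threshold of 0.05. Over the 19 classes 13 changes passed, made by 12 members in 7 classes. The share of all tested genes that passed ran from 0.0462% in NK cells to 19.4% in neutrophils, and is given below beside each class. In the whole suspension 17 of 48 members passed, 15 of them upwards, where 17.4% of all genes did. The rat is the replicate throughout.

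**Figure D2:**
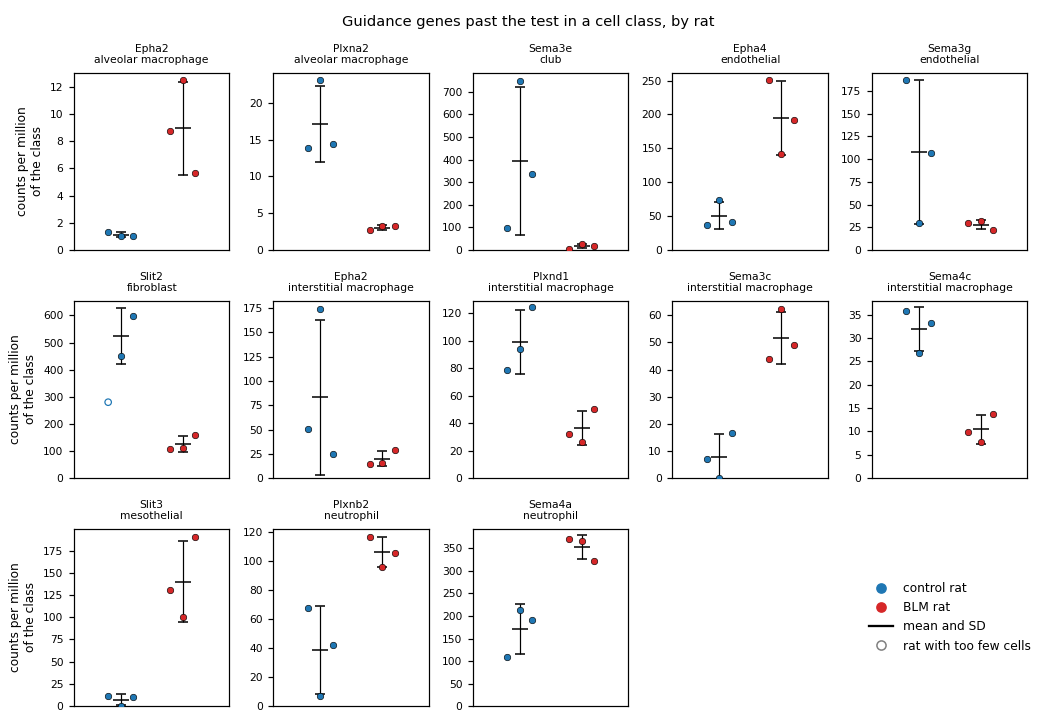
CPM of guidance genes in the 13 changes past the test in a cell class, 1 panel per gene and class, with a point per rat and the mean and SD of each group; the open point is the control rat with too few fibroblasts. BLM and control rats are apart in every panel except Sema3g in endothelial cells, where the control rat at 29.4 CPM lies among the BLM rats, and Epha2 in interstitial macrophages, where the control rat at 24.8 CPM lies below the BLM rat at 28.9 CPM.

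In alveolar macrophages, the resident macrophages of the air space, 2 of 11 tested members changed, where 14.3% of all genes tested did. Epha2, an Eph receptor best known from epithelium, was at 1.33, 1.003 and 1.02 CPM in control rats and at 8.74, 12.5 and 5.65 CPM in BLM rats. Every BLM rat was above every control rat, on 5, 1 and 7 against 23, 50 and 14 UMIs. The log2 fold change was 2.94 (SE 0.44, adjusted p = 0.0014). Plxna2, a receptor of class 3 and class 6 semaphorins, was at 13.9, 23.1 and 14.4 CPM in control and 2.66, 3.24 and 3.23 CPM in BLM rats. It fell by 2.40 on the log2 scale (SE 0.29, adjusted p = 0.00041), and the groups did not overlap.

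Alveolar macrophages were made of a pair of clusters whose mix differed between groups. Of the control cells 324 were in the cluster led by Fabp4 and 2520 in that led by Slc39a2, against 1642 and 467 BLM cells. Over pooled cells, Epha2 was at 1.71 CPM in control and 11.1 CPM in BLM cells of the Fabp4 cluster, and at 1.01 and 1.38 CPM in the Slc39a2 cluster. Plxna2 was lower in BLM cells of both clusters, at 13.7 against 2.61 CPM and 15.2 against 5.51 CPM. Tested in the Fabp4 cluster alone it fell by 2.43 on the log2 scale (adjusted p = 0.0016), and in the Slc39a2 cluster its log2 fold change was -1.60 (adjusted p = 0.058). Epha2 did not pass the filter on low counts in either cluster alone. Alveolar type 2 markers, which mark the class with most Plxna2, were also lower in sum in the BLM macrophages. Of the 9 markers 6 were below and 1 above control in every BLM rat. Their sum was 196 to 524 CPM in control and 133 to 164 CPM in BLM rats. At the ratio of Plxna2 to these markers in alveolar type 2 cells they would carry 0.797 and 0.282 CPM of Plxna2, against 17.1 and 3.04 CPM measured. For Epha2 the same markers would carry 0.339 and 0.147 CPM, against 1.12 and 8.95 CPM measured. The list of plasmacytoid dendritic cells, the class highest in Epha2 by CPM, holds genes that macrophages also use, and 1 of its 5 markers was above and 1 below control in every BLM rat. It summed to 392 to 1165 CPM in control and 272 to 423 CPM in BLM rats, and at its ratio would carry 54.9 and 40.3 CPM of Epha2, more than was measured in either group. Their part in the result was not tested.

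In the class named interstitial macrophages, after the macrophages of the tissue around airways and vessels, 4 of 10 tested members changed, where 17.6% of all genes did. Sema3c was at 7.17, 0 and 16.6 CPM in control and 43.8, 62.2 and 49.0 CPM in BLM rats, which rests on 3 control UMIs. From these sums the BLM level was 6.29 times the control level (95% counting interval 2.13 to 30.7, for counting error only), with an adjusted p of 0.0083. Plxnd1, the receptor of Sema3c, was at 78.8, 93.7 and 124 CPM in control and 31.9, 26.6 and 50.3 CPM in BLM rats, and fell by 1.40 on the log2 scale (SE 0.36, adjusted p = 0.014). Epha2 was at 50.2, 174 and 24.8 CPM in control and 14.9, 15.7 and 28.9 CPM in BLM rats. It fell by 1.79 (SE 0.55, adjusted p = 0.032), and the highest BLM rat lay above the lowest control rat. Sema4c, a Plxnb2 ligand, was at 35.8, 26.8 and 33.1 CPM in control and 9.96, 7.70 and 13.8 CPM in BLM rats, a fall of 1.61 (SE 0.54, adjusted p = 0.0495).

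These changes went with a change of cluster. Of the control interstitial macrophages 184 were in the cluster led by C1qc and 10 in that led by Spp1, against 501 and 940 BLM cells. The Spp1 cluster had all 10 interstitial markers higher and was named from them, with Arg1 among its leading genes. The paper instead annotates its macrophages high in Spp1, Trem2 and Arg1 as alveolar, so that the name of this cluster is not settled. Within the C1qc cluster Epha2 was at 74.0 CPM in pooled control and 67.0 CPM in pooled BLM cells, Sema4c at 35.4 and 37.5 CPM, and Plxnd1 at 106 and 68.1 CPM. In the Spp1 cluster of BLM cells the levels were 6.94, 2.97 and 23.5 CPM. Sema3c was at 65.4 CPM in BLM cells of the Spp1 cluster and 14.8 CPM in those of the C1qc cluster. No member passed when the C1qc cluster was tested alone with edgeR, with Plxnd1 at a log2 fold change of -0.63 (adjusted p = 0.58) and 328 of all its genes under an unadjusted p of 0.05.

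Single control rats also decided calls in this class. Without control rat 1 the adjusted p was 0.059 for Sema3c and 0.075 for Epha2. Without control rat 2 the log2 fold change of Epha2 was -0.88 (adjusted p = 0.36), and without control rat 3 that of Plxnd1 was -1.09 (adjusted p = 0.14). Sema4c was lost without any of the control rats (adjusted p = 0.097 to 0.26). It was also lost without the filter on low counts (adjusted p = 0.20) and at both other clustering resolutions (0.051 and 0.057). With the guidance genes kept in the clustering (0.071) and without the cells marked as doublets (0.056) it was lost too, and it passed in 2 of 11 alternatives. Without any of the BLM rats only Plxnd1 passed, since the other members were then under the filter on low counts. Of the 5 markers of plasmacytoid dendritic cells, the class highest in Epha2 by CPM, Siglech and Ccr9 were at 0 in this class. The whole list summed to 287 to 375 CPM in control and 185 to 278 CPM in BLM rats, and at its ratio would carry 25.5 and 25.2 CPM of Epha2, against 83.0 and 19.9 CPM measured. Its part in the result was not tested. Mesothelial markers, of the class highest in Sema3c, summed to 0 to 26.8 CPM in control and 9.95 to 22.9 CPM in BLM rats. At their ratio they would carry 1.42 and 1.81 CPM of Sema3c, and their part was not tested either.

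The direction of Epha2 thus differed between the macrophage classes, and the difference of its BLM effects was itself tested in 1 fit with the rat as a term. Interstitial minus alveolar macrophages gave -4.22 on the log2 scale (SE 0.71, adjusted p = 1.5e-05), the only 1 of 19 members past that test, where 18.9% of all genes passed.

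**Figure D3:**
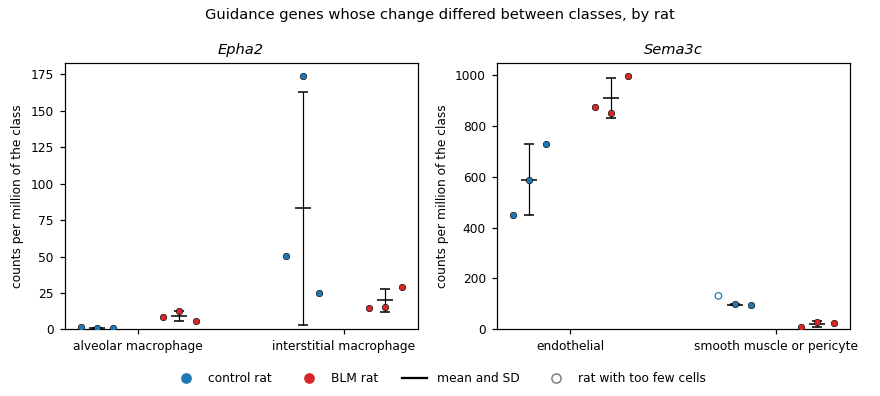
CPM per rat of the 2 guidance genes whose BLM effect differed between a pair of classes, with the mean and SD of each group and open points for rats with too few cells. Epha2 is higher in BLM than in control alveolar macrophages and mostly lower in interstitial macrophages, and Sema3c is higher in BLM than in control endothelial cells and lower in smooth muscle cells or pericytes.

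In endothelial cells, 2 of 19 tested members changed, where 6.83% of all genes did. Epha4, a receptor that binds ephrins of both classes, was at 37.4, 73.4 and 41.1 CPM in control and 251, 142 and 191 CPM in BLM rats, and every BLM rat was above every control rat. It rose by 2.08 on the log2 scale (SE 0.38, adjusted p = 0.0026). Sema3g was at 187, 29.4 and 106.8 CPM in control and 30.04, 31.9 and 22.2 CPM in BLM rats, so that control rat 2 lay among the BLM rats. It fell by 1.69 (SE 0.41, adjusted p = 0.019). The arterial and venous pair did not pass: Efnb2 was at 1046, 778 and 1487 CPM in control and 616, 621 and 604 CPM in BLM rats (log2 fold change -0.78, SE 0.24, adjusted p = 0.066), and Ephb4 had a log2 fold change of -0.53 (SE 0.22, adjusted p = 0.20). Among the 19 members, 9 had an unadjusted p under 0.05, as had 1166 of all 6209 genes tested.

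The endothelial changes rest on 28, 41 and 151 control cells. Without control rat 3 the adjusted p of Epha4 was 0.076. That of Sema3g was 0.084 without control rat 1 and 0.44 without control rat 3. Alveolar type 2 markers in the endothelial cells summed to 616 to 784 CPM in control and 91.6 to 151 CPM in BLM rats. At their ratio to Epha4 these would carry 0.104 and 0.0379 CPM of it. What part RNA of other cells had in the result was not tested.

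By vessel kind, the endothelial cells were split into general capillary (126 control and 1165 BLM cells), arterial (27 and 151), venous (25 and 109) and aerocyte cells, the thin capillary cells of gas exchange, of which there were 27 in control and 0 in BLM lungs. In general capillary cells 3 of 16 tested members changed, where 8.98% of all genes did. Epha4 was at 0, 92.5 and 8.98 CPM in control and 337, 186 and 238 CPM in BLM rats, on 4 control UMIs in all, with a log2 fold change of 3.39 (SE 0.60, adjusted p = 0.00017). Efnb2 was at 1231, 1234 and 2426 CPM in control and 796, 773 and 672 CPM in BLM rats, and fell by 1.12 (SE 0.24, adjusted p = 0.0022). Sema6d, a membrane semaphorin that binds Plxna1, was at 61.6, 123 and 162 CPM in control and 50.1, 48.7 and 36.3 CPM in BLM rats, and fell by 1.58 (SE 0.42, adjusted p = 0.013). No BLM rat overlapped a control rat for these 3 genes.

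**Figure D4:**
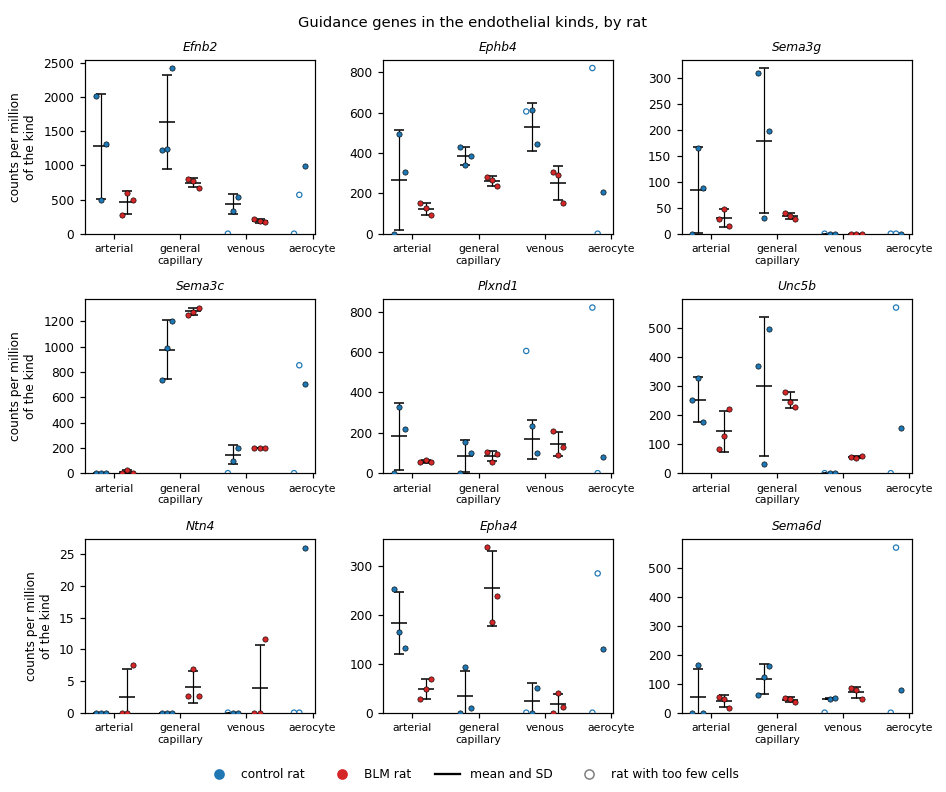
CPM per rat of 9 guidance genes in the 4 endothelial kinds, with the mean and SD of each group and open points for rats with fewer than 5 cells of the kind. Efnb2 is lower in the BLM rats of general capillary cells, Epha4 is higher there, Sema3c is high in general capillary cells and near 0 in arterial cells, and aerocytes have control points only.

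The control and BLM capillary cells came from different subclusters. Of the 126 control cells 98 were in a subcluster led by Gpx2, Cyp1a1 and Hpgd, which held 0 BLM cells. In the other subclusters, with 28 control and 1165 BLM cells, Efnb2 was at 2022 against 733 CPM and Epha4 at 56.2 against 243 CPM over pooled cells. Tested on these alone the log2 fold changes were -0.73 for Efnb2 (adjusted p = 0.24) and 2.81 for Epha4 (adjusted p = 0.14), and no member passed by edgeR, with 713 of all genes under an unadjusted p of 0.05. Efnb2 and Sema6d turned on control rat 3, which gave 89 of the 126 control cells: without it the log2 fold changes were -0.32 (adjusted p = 0.62) and -0.83 (adjusted p = 0.69), and Sema6d was also lost without BLM rat 3 (adjusted p = 0.053). Sema6d did not pass either without the filter on low counts (adjusted p = 0.056) or with kinds named cell by cell (adjusted p = 0.066), and passed in 6 of 11 alternatives. Epha4 is among the leading genes of 1 subcluster of BLM cells. In arterial cells its order was the opposite, at 183 CPM ± 62.4 in control and 47.9 CPM ± 20.3 in BLM rats, on 1, 1 and 3 against 2, 6 and 9 UMIs, which was too low for a test.

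Neither of the other tested kinds had a change past the threshold. In arterial cells 0 of 4 members passed, where 1.25% of all genes did, with 1 under an unadjusted p of 0.05 and 0 by DESeq2. In venous cells 0 of 8 passed, where 2.86% of all genes did, with 3 under an unadjusted p of 0.05 and 0 by DESeq2. Efnb2 was at 1278 CPM ± 765 in control and 458 CPM ± 166 in BLM arterial cells (SD, n = 3 each, adjusted p = 0.18). In venous cells it was at 437 CPM ± 151 (n = 2) and 186 CPM ± 23.0 (n = 3, adjusted p = 0.28). Ephb4, the venous member of the pair, was at 529 CPM ± 119 and 249 CPM ± 84.8 in venous cells (adjusted p = 0.30) and at 385 CPM ± 45.8 and 261 CPM ± 24.2 in general capillary cells (adjusted p = 0.39).

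Other members were read in several kinds. Sema3c was at 977 CPM ± 233 in control and 1278 CPM ± 28.8 in BLM general capillary cells (adjusted p = 0.33), against 146 CPM ± 73.0 and 197 CPM ± 1.62 in venous cells (n = 2 and 3), and 0 UMIs in control and 3 UMIs in BLM arterial cells. Sema3g was read in arterial and general capillary cells and had 0 UMIs in venous cells and aerocytes. Unc5b, an endothelial netrin receptor, was at 298 CPM ± 240 and 250 CPM ± 26.8 in general capillary cells (adjusted p = 0.55). Plxnd1 was at 84.3 CPM ± 78.1 and 86.6 CPM ± 25.7 there (adjusted p = 0.94) and at 167 CPM ± 96.9 and 143 CPM ± 60.2 in venous cells. Ntn4 had 7 UMIs in general capillary cells, all in BLM rats. In aerocytes only control rat 3 had at least 5 cells, and there Efnb2 was at 988 CPM, Sema3c at 702 CPM, Ephb4 at 208 CPM and Unc5b at 156 CPM.

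In fibroblasts, 1 of 26 tested members changed, where 1.22% of all genes did. Slit2, a secreted Robo ligand, was at 452 and 598 CPM in the control rats with at least 10 fibroblasts and at 107, 112 and 158 CPM in BLM rats. It fell by 1.87 on the log2 scale (SE 0.29, adjusted p = 0.014), and the groups did not overlap. The control values rest on 15 and 29 cells with 18 and 36 UMIs of Slit2. The adjusted p was 0.088 without control rat 2, 0.24 without control rat 3 and 0.052 without BLM rat 1. Mesothelial markers, of the other class with most Slit2, summed to 16.6 to 25.1 CPM in control and 56.0 to 362 CPM in BLM fibroblasts. Of these 8 markers 1 was above control in every BLM rat, and Upk3b and Lrrn4 were at 0. Their part in the result was not tested. Among the members that did not pass, Robo2, a Slit receptor, had a log2 fold change of -2.54 (SE 0.60, adjusted p = 0.071).

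In mesothelial cells, which line the lung surface, 1 of 13 tested members changed, where 2.09% of all genes did. Slit3 had 2, 0 and 1 UMIs in control and 29, 64 and 251 UMIs in BLM rats, which is 11.4, 0 and 10.4 CPM against 130, 100.1 and 190 CPM. Over the summed UMIs the BLM level was 18.2 times the control level (95% counting interval 6.19 to 88.9), with an adjusted p of 0.0063. Without control rat 1 the adjusted p was 0.058. Slit2, also a leading mesothelial gene, was at 464 CPM ± 25.8 in control and 193 CPM ± 101 in BLM rats (log2 fold change -1.36, SE 0.33, adjusted p = 0.058). Markers of smooth muscle cells or pericytes, the class highest in Slit3, summed to 17.1 to 62.5 CPM in control and 18.2 to 130 CPM in BLM mesothelial cells, and at their ratio would carry 1.83 and 2.54 CPM of Slit3. The fibroblast list, many of whose genes mesothelial cells also use, summed to 22222 to 41232 CPM in control and 7833 to 20991 CPM in BLM rats. At its ratio to Slit3 in fibroblasts it would carry 272 and 179 CPM of Slit3, against 7.27 and 140.2 CPM measured. What part either list had in the result was not tested.

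In smooth muscle cells or pericytes 0 of 13 members passed, where 3.26% of all genes did, with 2 under an unadjusted p of 0.05 and 0 by DESeq2.

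The effect on Sema3c differed between smooth muscle cells or pericytes and endothelial cells. Sema3c was at 98.6 and 95.7 CPM in the control rats with at least 10 smooth muscle cells or pericytes and at 7.95, 30.4 and 24.1 CPM in BLM rats, with a log2 fold change of -2.14 (adjusted p = 0.057). In endothelial cells it was at 448, 587 and 727 CPM in control and 874, 850 and 996 CPM in BLM rats, with a log2 fold change of 0.65 (adjusted p = 0.11). Neither passed alone, and the difference was -2.61 (SE 0.55, adjusted p = 0.016), the only 1 of 25 members past that test, where 1.46% of all genes passed. The adjusted p of the difference was 0.11 without control rat 2, 0.34 without control rat 3 and 0.058 without BLM rat 3. Between fibroblasts and endothelial cells 0 of 32 members differed, where 1.58% of all genes did, with 3 under an unadjusted p of 0.05 and 0 by DESeq2.

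In the club class, the secretory cells of the airways, 1 of 11 tested members changed, where 5.12% of all genes did. Sema3e, a secreted Plxnd1 ligand, was at 99.4, 748 and 335 CPM in control and 6.84, 25.2 and 19.4 CPM in BLM rats, and fell by 4.41 on the log2 scale (SE 0.59, adjusted p = 0.0012). Markers of alveolar type 1 cells, the flat cells of gas exchange, fell with it: 6 of 8 were below control in every BLM rat, and their sum was 4722 to 17223 CPM in control and 1468 to 3694 CPM in BLM rats. At a finer clustering a cluster of 71 cells led by alveolar type 1 markers split from the club class and took 110 of its 117 control UMIs of Sema3e. In that cluster Sema3e was at 723 CPM in 59 pooled control cells and 327 CPM in 12 pooled BLM cells. In the club cells that remained it was at 37.7 CPM (7 UMIs) in control and 6.34 CPM (5 UMIs) in BLM cells, and too low there for a test.

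In neutrophils 2 of 6 tested members changed, where 19.4% of all genes did. Sema4a was at 109.8, 214 and 190 CPM in control and 370.2, 367 and 322 CPM in BLM rats, and rose by 0.86 on the log2 scale (SE 0.26, adjusted p = 0.029). Plxnb2 was at 67.6, 7.12 and 41.9 CPM in control and 117, 95.9 and 106 CPM in BLM rats, and rose by 1.29 (SE 0.43, adjusted p = 0.046). The groups did not overlap for either gene. Both are leading genes of mononuclear phagocytes, and the summed markers of those cells were higher in the BLM neutrophils too. The alveolar macrophage list summed to 3482 to 4370 CPM in control and 4828 to 5734 CPM in BLM rats. Of its 11 markers 6 were above and 1 below control in every BLM rat, and Marco was at 0. The dendritic cell list summed to 16.9 to 99.7 and 247 to 657 CPM, with 2 of 8 markers above control in every BLM rat. For the monocyte list the sums were 78.3 to 226 and 398 to 704 CPM, with 1 of 6 above. At their ratio in alveolar macrophages these markers would carry 132 and 216 CPM of Sema4a, against 171 and 353 CPM measured, and 84.5 and 127 CPM of Plxnb2, against 38.9 and 106 CPM measured. Their part in the result was not tested. Sema4a was lost without control rats 1 or 3 or BLM rats 1 or 2 (adjusted p = 0.063 to 0.15), and Plxnb2 without any rat but control rat 1 (adjusted p = 0.073 to 0.13). Sema4a did not pass either without the filter on low counts (adjusted p = 0.055), nor Plxnb2 by DESeq2 (0.075), at resolution 2.0 (0.087) or with the guidance genes kept in the clustering (0.056).

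No member passed in 12 classes, which held 57 tests of members, 8 of them under an unadjusted p of 0.05 and 1 passing by DESeq2. Besides smooth muscle cells or pericytes these were alveolar type 2 cells, where 1.27% of all genes passed, B cells (0.474%), NK cells (0.0462%), T cells (0.378%), dendritic cells (0.0470%), plasmacytoid dendritic cells (0.515%), monocytes (0.404%) and proliferating cells (6.22%). The others were the unnamed classes led by Gjb2 and Defb14 (0.986%), by Il2ra and Gata3 (0.309%, with 0 members tested) and by Tchh and Caskin1 (4.84%). In alveolar type 2 cells the value nearest to the threshold was that of Sema4f, a membrane semaphorin, at 242, 272 and 256 CPM in control and 69.6 and 148 CPM in the BLM rats with at least 10 such cells. Its log2 fold change was -1.23 (SE 0.28, adjusted p = 0.051), and it passed by DESeq2.

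In the sum of all cells, 15 members rose and 2 fell, where 17.4% of all genes changed. In such a sum fewer cells of a type and less RNA per cell cannot be told apart. Unc5b was at 5.02, 8.55 and 9.28 CPM in control and 34.0, 30.8 and 44.2 CPM in BLM rats, and rose by 2.19 on the log2 scale (SE 0.26, adjusted p = 0.0022). Slit3 was at 5.41, 29.5 and 11.8 CPM in control and 72.1, 134 and 108.9 CPM in BLM rats, and rose by 2.82 (SE 0.51, adjusted p = 0.0099). Both groups of rats were fully apart for these genes.

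The other ligands that rose were Sema7a (2.27), Sema6a (2.23), Sema4c (1.53), Sema3f (1.49), Efnb1 (1.43), Sema3c (1.43), Slit2 (1.25) and Efnb2 (0.96), each value being a log2 fold change in the sum of all cells. The receptors that rose were Ephb1 (1.81), Ephb4 (1.59), Epha4 (1.31), Plxnd1 (1.26) and Plxna1 (0.60). Their adjusted p-values lay between 0.0062 for Sema7a and 0.046 for Slit2. Sema4f fell by 2.24 (SE 0.30, adjusted p = 0.0033), from 37.9 CPM ± 11.9 to 8.31 CPM ± 2.83, and Plxna2 fell by 1.19 (SE 0.30, adjusted p = 0.032), from 75.3 CPM ± 16.5 to 34.1 CPM ± 17.3.

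**Figure D5:**
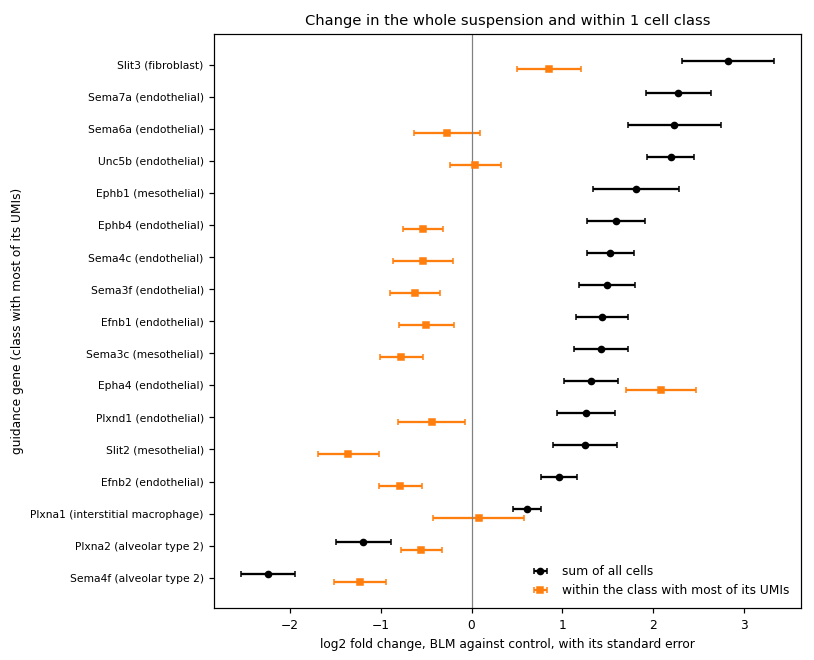
Log2 fold change (BLM against control, with its standard error) of the 17 guidance genes past the test in the sum of all cells (black), and within the class that holds most of their UMIs (orange), which is absent where the gene was under the filter in that class. Most black points lie near or above 1, while the orange points lie near or below 0 except for Epha4 and Slit3.

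The class that held most UMIs of these 17 members was endothelial for 10, mesothelial for 3, alveolar type 2 for 2, fibroblast for 1 and interstitial macrophage for 1. Within that class only Epha4 passed. Unc5b, with 50.3% of its UMIs in endothelial cells, had a log2 fold change of 0.04 there (SE 0.28, adjusted p = 0.97). Slit3, with 62.1% in fibroblasts, had 0.85 (SE 0.35, adjusted p = 0.30). Sema4f and Plxna2 had 65.5% and 50.1% of their UMIs in alveolar type 2 cells, whose share of cells was lower in BLM lungs, and within them the log2 fold changes were -1.23 (adjusted p = 0.051) and -0.55 (adjusted p = 0.34).

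For several members the sum and the class had opposite signs. Efnb2 was 0.96 in the sum and -0.78 in endothelial cells (adjusted p = 0.066), Ephb4 1.59 and -0.53 (adjusted p = 0.20), and Sema3f 1.49 and -0.62 (adjusted p = 0.23). Slit2 was 1.25 in the sum and -1.36 in mesothelial cells (adjusted p = 0.058), and it fell in fibroblasts. Sema3c was 1.43 in the sum and -0.77 in mesothelial cells (adjusted p = 0.14). Without control rat 1 only 8 members passed in the sum, and without control rat 3 only 9, while Unc5b, Slit3, Sema7a, Sema4c, Ephb4 and Sema4f passed in all alternatives.

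Other genes of the guidance pathways, 46 measured of a list of 48 co-receptors and signalling genes, made 19 changes past the test in classes, by 16 genes. In alveolar macrophages 3 rose and 1 fell of 28 tested, where 14.3% of all genes passed. Cd72, a receptor of Sema4d on immune cells, fell by 3.18 (SE 0.58, adjusted p = 0.0047), and the Rac regulator Tiam1 rose by 1.01 (adjusted p = 0.034). Rasa1, a Ras inhibitor, rose by 0.56 and the kinase Pak1 by 0.65 (adjusted p = 0.040 and 0.046). In the club class 0 rose and 2 fell of 16, where 5.12% of all genes passed. Flrt3, a ligand of Unc5 receptors, fell by 3.53 (adjusted p = 0.0036) and Nrp2, a semaphorin co-receptor, by 2.84 (adjusted p = 0.0053). As with Sema3e, the cluster that split off held 100 of 103 control UMIs of Flrt3 and 44 of 51 of Nrp2. In endothelial cells Rnd1, a GTPase that binds plexins, was the 1 of 23 to pass, where 6.83% of all genes did, and rose by 1.57 (SE 0.40, adjusted p = 0.023). In general capillary cells Cfl1, the actin-severing cofilin, was the 1 of 16, where 8.98% of all genes passed, and rose by 0.71 (adjusted p = 0.044).

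In interstitial macrophages 3 pathway genes rose and 2 fell of 21 tested, where 17.6% of all genes passed. Adam10, a protease that cuts ephrins, rose by 2.15 (adjusted p = 0.012), the kinase Fyn by 1.62 (adjusted p = 0.0060) and the adaptor Nck1 by 1.33 (adjusted p = 0.046). Rock2, the kinase downstream of RhoA, fell by 1.03 (adjusted p = 0.0059) and Rnd1 by 1.65 (adjusted p = 0.042). In neutrophils 2 rose and 3 fell of 14, where 19.4% of all genes passed. The integrin Itgb1 rose by 1.29 (adjusted p = 0.0097) and Cfl1 by 0.65 (adjusted p = 0.044). There Mical1 fell by 1.17 (adjusted p = 0.0090), Vav3 by 1.26 (adjusted p = 0.023) and Rock1 by 0.84 (adjusted p = 0.018). In fibroblasts 2 of 30 passed, where 1.22% of all genes did. Fyn was 9.51 times higher in BLM (95% counting interval 2.62 to 78.7, 2 control UMIs, adjusted p = 0.038), and Nck1, with 0 UMIs in the control rats tested, was at least 2.93-fold higher against a floor of 3 counts over the group (adjusted p = 0.040). In the sum of all cells 8 pathway genes rose and 1, Mical1, fell, of 43 tested, where 17.4% of all genes passed.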

How the data were processed

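Lung cells of 3 control and 3 BLM rats were captured with the BD Rhapsody microwell system, which tags each transcript with a cell barcode and a UMI. The authors deposited 1 table of raw UMI counts per cell and gene (counts: whole numbers, 0 values below 0). For the build, the submitters' processing notes give only mm9, of the mouse, and the aligner is not given in the sources used here. The header of the table stands 1 field to the left of its values, which was corrected before use and leaves 1 header name without values. Rats were read from the cell names, which end in N or F and a number. N was read as normal (control) and F as fibrosis (BLM), a reading that the sample titles do not spell out.

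Cells were clustered with scanpy 1.11.5 (2000 variable genes without the guidance genes, 30 principal components, Leiden resolution 1.0) and clusters were named from marker lists. Scrublet marked 99 cells (0.388%), too few for it to have worked, so that all cells were kept. Refits without these 99 cells are among the alternatives, and they cannot show what doublets do to the results. Endothelial cells were clustered again and named by vessel kind. UMIs were summed per rat and class (at least 10 cells per rat) or kind (at least 5 cells), with at least 2 rats per group, and tested with edgeR 4.0.16 in R 4.3.3 (filterByExpr, TMM, quasi-likelihood test, two-sided), adjusted by Benjamini-Hochberg over all genes of a class, not over classes. The difference of BLM effects was tested for 3 pairs of classes. Intervals of ratios and the floor of 3 counts cover counting error only. The fits were checked on simulated counts. DESeq2 1.42.0, RLE scaling, no filter, the replicate block, each rat left out, other clusterings and cell filters were the alternatives. Single clusters alone were added after seeing the data.

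Named are members past a test, the 3 highest members of each tested class, 8 genes set for the endothelial kinds, members under the filter and pathway genes past a test in a class. The members and lists were chosen with earlier results of these data known. Promoter windows came from RefSeq (GRCr8), and none of their coordinates was joined to the counts. A cell class is not reported here, though its cells are in the sum of all cells.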

Additional observations from a re-analysis of the deposited data

Results flagged for a closer look

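The BLM effect on Epha2 differed between interstitial and alveolar macrophages, with a difference of -4.22 on the log2 scale (SE 0.71, adjusted p = 1.5e-05, edgeR quasi-likelihood test). Epha2 was higher in 3 of 3 BLM rats in alveolar macrophages. The 2 classes differed the same way in all 8 alternatives, between -4.67 and -3.61. These were RLE scaling, DESeq2 and each rat left out, with no other clustering and no single cluster among them. Within the C1qc cluster of interstitial macrophages Epha2 was at 74.0 CPM in pooled control and 67.0 CPM in pooled BLM cells. The fall of Epha2 in interstitial macrophages did not pass without control rat 1 or control rat 2.

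The BLM effect on Sema3c differed between smooth muscle cells or pericytes and endothelial cells, with a difference of -2.61 (SE 0.55, adjusted p = 0.016). It was lower in 3 of 3 BLM rats in the former and higher in 3 of 3 BLM rats in the latter. Over the alternatives, which were RLE scaling, DESeq2 and rats left out with no other clustering, the difference lay between -3.01 and -2.28. It passed in 4 of these 7 alternatives, and not without control rat 2, control rat 3 or BLM rat 3.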

How the results depend on the processing

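Over 407 refits of the 35 changes of single members past a test, 321 kept the call, 86 kept the direction without passing and 0 reversed. In all alternatives where the gene could be tested 9 changes passed, among them Epha2 in alveolar macrophages and Sema3e in the club class. Refits with the gene under the filter on low counts are not among these. They include Sema3e in club cells at resolution 2.0, and Epha2 in the Fabp4 and Slc39a2 clusters alone. Of 382 recounts of members past the test, 316 stayed within 1.5 times the main count. Classes where no member passed under any setting are among the 316, as a count of 0 there was taken as unchanged. The 316 are therefore no measure of how stable the changes were. Without the filter on low counts 32 changes of members passed over the classes in place of 13, with 4 in alveolar macrophages, 5 each in club cells, endothelial cells and fibroblasts, 4 in mesothelial cells, and 1 each in B cells, alveolar type 2 cells, proliferating cells and smooth muscle cells or pericytes. By DESeq2 3 passed in fibroblasts, 2 in mesothelial cells, 1 in neutrophils and 1 in alveolar type 2 cells. In alveolar type 2 cells 1 also passed at Leiden resolutions 0.5 and 2.0 and with the guidance genes kept in the clustering, in place of 0. The same held without the cells marked as doublets and in cells of at least 500 UMIs. At resolution 2.0 club cells had 0 and neutrophils 1, and with the guidance genes kept neutrophils had 1. Tested as single clusters, chosen after seeing the data, the Fabp4 cluster gave 1, the Slc39a2 cluster 0 and the C1qc cluster 0, and general capillary cells without the Gpx2 subcluster gave 0. Arterial cells had 1 at a finer clustering of kinds, and venous cells 1 when kinds were named cell by cell. The share of all genes passing under each alternative is not given here. These recounts and those below therefore cannot be read as results about the members apart from other genes. The causes of these moves were not tested.

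With the replicate number as a block, 1 member passed in endothelial cells, where Sema3g was lost (adjusted p = 0.097), 4 in fibroblasts, 2 in mesothelial cells, 0 in neutrophils and 1 in alveolar type 2 cells. Sema4c in interstitial macrophages (adjusted p = 0.091) and Sema6d in general capillary cells (adjusted p = 0.054) were also lost. Control and BLM rats of the same number share only that number: in the sum of all cells their deviations from the group means correlated at 0.102, -0.0587 and -0.127.

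With each rat left out in turn, 6 to 14 changes of members passed over the classes. The range was 0 to 1 in alveolar type 2 cells, 1 to 2 in club cells, 1 to 3 in endothelial cells, 0 to 3 in fibroblasts, 1 to 2 in interstitial macrophages, 0 to 3 in mesothelial cells and 0 to 1 in neutrophils. In the sum of all cells it was 8 to 17. Between classes 1 to 2 members differed, with 0 to 1 for fibroblasts and 0 to 1 for smooth muscle cells or pericytes against endothelial cells. Depth limits these results most in control fibroblasts, arterial and venous cells, with 25 to 27 control cells per vessel kind, and for members of 1 to 3 control UMIs.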

Other observations

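Classes with too few cells for a test also carried guidance genes. In the unnamed class led by Ccl21 and Hbb, whose leading genes hold both erythroid (Hba.a2, Hba.a3, Alas2) and lymphatic (Mmrn1, Reln, Flt4) markers, Unc5b was at 578, 174 and 913 CPM in the 3 BLM rats, and Sema3d at 578, 193 and 360 CPM. The 1 control rat with at least 10 such cells had 109.5 CPM of Unc5b on 3 UMIs. At Leiden resolution 2.0 there was in its place an erythroid-like cluster of 135 cells, 122 of them in BLM rat 2, and a lymphatic endothelial-like cluster of 105 cells. In tuft cells, the chemosensory cells of the epithelium, Epha2 was at 195, 335 and 136 CPM in the 3 control rats, on 10, 5 and 2 UMIs, and no BLM rat had 10 tuft cells. In ciliated cells of BLM rats Plxnb2 was at 370, 279 and 367 CPM and Sema3e at 82.2, 81.9 and 152 CPM.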
